A study of Mus musculus with 4 samples.

Results

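The transcripts of 8 secreted proteins of the extracellular matrix and of latent TGF-beta storage were followed in T cells of KO mice and of wild-type (WT) mice. Their genes are Ltbp1, Ltbp3, Ltbp4, Fbln1, Itih5, Tgfbi, Crispld2 and Ecm1. Naive T cells from the spleen of KO or WT mice were put under conditions that induce regulatory T cells (Treg cells) for 3 days, and their total RNA, 6 micrograms of it for each labelling, was read on 4 single-colour Affymetrix arrays, 2 of KO and 2 of WT cells. The labels name neither the gene removed in the KO nor how it was removed, nor the strain, age and sex of the mice, the added cytokines or the number of mice behind a culture. Sources are labelled by genotype and number (KO1, KO2, WT1, WT2), and nothing says that equal genotypes came from separate animals or cultures, so p-values rest on a spread that could be technical. All 22 probe sets whose annotation names one of the 8 genes alone were taken, of 45101 probe sets in the table, and of 18194 genes named alone by some probe set the members are 8. A probe set is a group of short probes for 1 transcript, and its value is a linear MAS5 signal. The genes had been selected on their KO and WT signals on these same arrays. Their differences and calls are therefore given as a description, not as a test, and nothing is supported with them.

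TGF-beta is secreted in a latent form, folded into its own propeptide, and must be released from it before it can act. Latent TGF-beta binding proteins (LTBPs) attach to that propeptide and anchor it to fibrillin fibres of the matrix, while Treg cells can instead hold it on a membrane anchor. TGF-beta is the cytokine that drives Foxp3 in naive T cells in culture, and it also controls many matrix genes in other cell types. Fibulins, inter-alpha-trypsin inhibitor heavy chains and transforming growth factor beta induced protein (the product of Tgfbi) are matrix proteins that bind elastic fibres, hyaluronan, or integrins and collagens.

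The promoters of the 4 members with the largest differences at their brightest probe set are shown, since Fbln1 and Itih5 were lower and Crispld2 and Tgfbi higher in KO cells. Each is the RefSeq window of build GRCm38.p6 from 250 bases before to 50 after an annotated start, in the direction of the gene. The windows lie on the plus strand at chr15:85205699-85205998 for Fbln1 (the first of its 2 overlapping windows), chr2:10153293-10153592 for Itih5, chr8:119992188-119992487 for Crispld2 and chr13:56609336-56609635 for Tgfbi. Capitals mark the Smad box, the letters CAGAC or, on the other strand, GTCTG, a short motif to which Smad proteins of TGF-beta signalling can bind.
Fbln1: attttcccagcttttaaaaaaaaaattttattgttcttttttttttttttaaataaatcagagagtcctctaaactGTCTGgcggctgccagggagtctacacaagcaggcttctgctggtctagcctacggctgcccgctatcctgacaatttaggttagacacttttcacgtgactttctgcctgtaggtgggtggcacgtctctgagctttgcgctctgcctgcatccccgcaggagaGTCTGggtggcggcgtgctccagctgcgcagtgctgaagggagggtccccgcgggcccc
Itih5: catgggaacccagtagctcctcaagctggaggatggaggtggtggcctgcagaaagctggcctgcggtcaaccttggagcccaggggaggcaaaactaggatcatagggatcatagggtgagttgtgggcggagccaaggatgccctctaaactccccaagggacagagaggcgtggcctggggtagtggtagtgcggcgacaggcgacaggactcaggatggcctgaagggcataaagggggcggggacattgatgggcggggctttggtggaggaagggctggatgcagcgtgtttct
Crispld2: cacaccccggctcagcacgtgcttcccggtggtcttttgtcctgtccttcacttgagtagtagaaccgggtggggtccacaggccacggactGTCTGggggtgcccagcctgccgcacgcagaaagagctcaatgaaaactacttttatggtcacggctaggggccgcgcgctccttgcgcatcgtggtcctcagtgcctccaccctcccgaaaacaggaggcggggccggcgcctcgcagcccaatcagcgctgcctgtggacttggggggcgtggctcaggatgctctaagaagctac
Tgfbi: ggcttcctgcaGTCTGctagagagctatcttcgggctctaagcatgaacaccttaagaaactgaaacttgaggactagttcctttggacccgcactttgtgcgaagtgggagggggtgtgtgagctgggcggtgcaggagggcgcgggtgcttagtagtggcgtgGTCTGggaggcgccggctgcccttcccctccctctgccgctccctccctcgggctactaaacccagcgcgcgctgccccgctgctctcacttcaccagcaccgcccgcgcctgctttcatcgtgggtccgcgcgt

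The Smad box matched 2 times in the Fbln1 window, 0 times in that of Itih5, 1 time in that of Crispld2 and 2 times in that of Tgfbi. All 8 members matched a window in the RefSeq table, 12 windows in all, and 8 of the 12 held the box, while 49.6% of all 32851 windows held it. The GC box, GGGCGG on either strand, was in 7 of 12 member windows and in 35.7% of all windows. The AP-1 motif TGANTCA was in 2 of 12 (7.81% of all), in the windows of Ltbp3, where it shares bases with a Smad box, and Ecm1. The Runx motif TGTGGTT was in 1 of 12 (5.27%), in the second window of Ltbp1. The forkhead motif GTAAACA (3.65%) and the STAT motif TTCNNNGAA (8.3%) were in none of the 12 windows, which says only that these letters are not in them. Windows of 1 gene can overlap, so the 12 are not independent. The window with the most GC boxes was the third of Ltbp4 with 9, and it was 81.3% G and C, against a median of 52.7% over all windows. The window of Ecm1 was poor in CpG, at 0.09 of the number that its base composition gives, and that of Ltbp3 was at 0.19. Over all windows the median was 0.38 and the lower quartile 0.18. Ltbp1 has 2 annotated starts 173252 bases apart, and the probe sets are not known here to tell the resulting transcripts apart.

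The T cell genes Cd3d, Cd3g and Thy1 were bright on all arrays (7 of 8 T cell markers were measured and passed the filter, with summed signals of 84495 to 91136 on KO arrays and 63490 to 65480 on WT arrays). Of these 7, Cd3d, Cd3e, Cd3g and Thy1 were called higher in KO cells and 3 were not called. Cd4, among the 3, was at 517.5 and 631 on KO arrays, against 786 and 662.5 on WT arrays. Foxp3, the Treg lineage factor, was at 947 and 1101 on KO arrays, against 2177 and 2033 on WT arrays. Of the 4 Treg markers, Foxp3 and Ikzf2 (-0.73 ± 0.15) fell, and Il2ra (0.99 ± 0.12) and Ctla4 (0.97 ± 0.10) rose, with adjusted p of 0.00123, 0.0132, 0.00103 and 0.000399 in limma. Markers of other cell types that a spleen culture could hold were also read. Mast cell and basophil markers were higher in KO cells for 4 of 6 genes, with summed signals of 4996 and 7667 on KO arrays, against 779.7 and 836.7 on WT arrays, although Kit was not called and Tpsb2 was at 25.1 and 70.8 on KO arrays, against 60.1 and 44.8 on WT arrays, at its brightest probe set (1 of its 2 tested probe sets was called higher). Macrophage and dendritic markers were higher for 4 of 9 (sums of 3623 and 4051 on KO arrays, against 1173 and 3319 on WT arrays). H2-Aa, not called, held much of these sums, at 2240.5 and 2075 on KO arrays, against 653.9 and 2601 on WT arrays. Platelet markers were higher for 2 of 5 (930.7 and 1285 on KO arrays, against 313 and 403 on WT arrays). B cell markers had no called gene among 3 tested, with sums of 686.8 and 987.4 on KO arrays, against 469.2 and 1093 on WT arrays. The immunoglobulin heavy chain gene Ighm, not on the B cell list, was at 28036 and 20551 on KO arrays, against 1762 and 3125 on WT arrays. It was found through its likeness to Tgfbi, given below. Of 2 tested endothelial markers Pecam1 was called higher (sums of 434.2 and 473.5 on KO arrays, against 273.5 and 321.1 on WT arrays). The part of these markers and of Ighm in the results below was not tested. In such bulk RNA, fewer cells of a type and less RNA per cell cannot be told apart.

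Of the 22 member probe sets, 12 had a higher and 10 a lower mean in KO cells, and each gene's probe sets lay on the same side. A filter on mean log2 signal, which removed the dimmest 40% and lay near a signal of 33.2, kept 16 of them. Among these, limma called 8 higher and 6 lower in KO cells at an adjusted p of 0.05, beside 7.89% and 9.17% of all tested probe sets, and the KO and WT values of all 16 did not overlap, as for 60.2% of all tested probe sets. The 2 not called were the third of Fbln1 and that of Ltbp4. Ltbp4 was called without KO array 1, Ltbp1 and Ecm1 were not called with 1 prior variance for dim and bright probe sets alike (no intensity trend), and a filter of 60% left out the called probe sets of Fbln1 and the third of Tgfbi. The genes had been selected on this contrast, and a dim probe set could pass the filter through 1 genotype alone, so nothing is read from these counts. All values below are of signal, and fold changes are of log2(signal + 16), KO minus WT, ± SE with n = 2 per group, which understates the change of dim probe sets. The probe sets of a gene are numbered by their mean log2 signal, the brightest first, and their levels are not set against each other, since probes differ in brightness. Names with an a, s or x before their ending mark probes shared between transcripts, of 1 gene or of several. Such were the second of Fbln1, the first and the third of Ltbp3, that of Ltbp4, the first 3 of Tgfbi and the first of Crispld2.

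**Figure D1:**
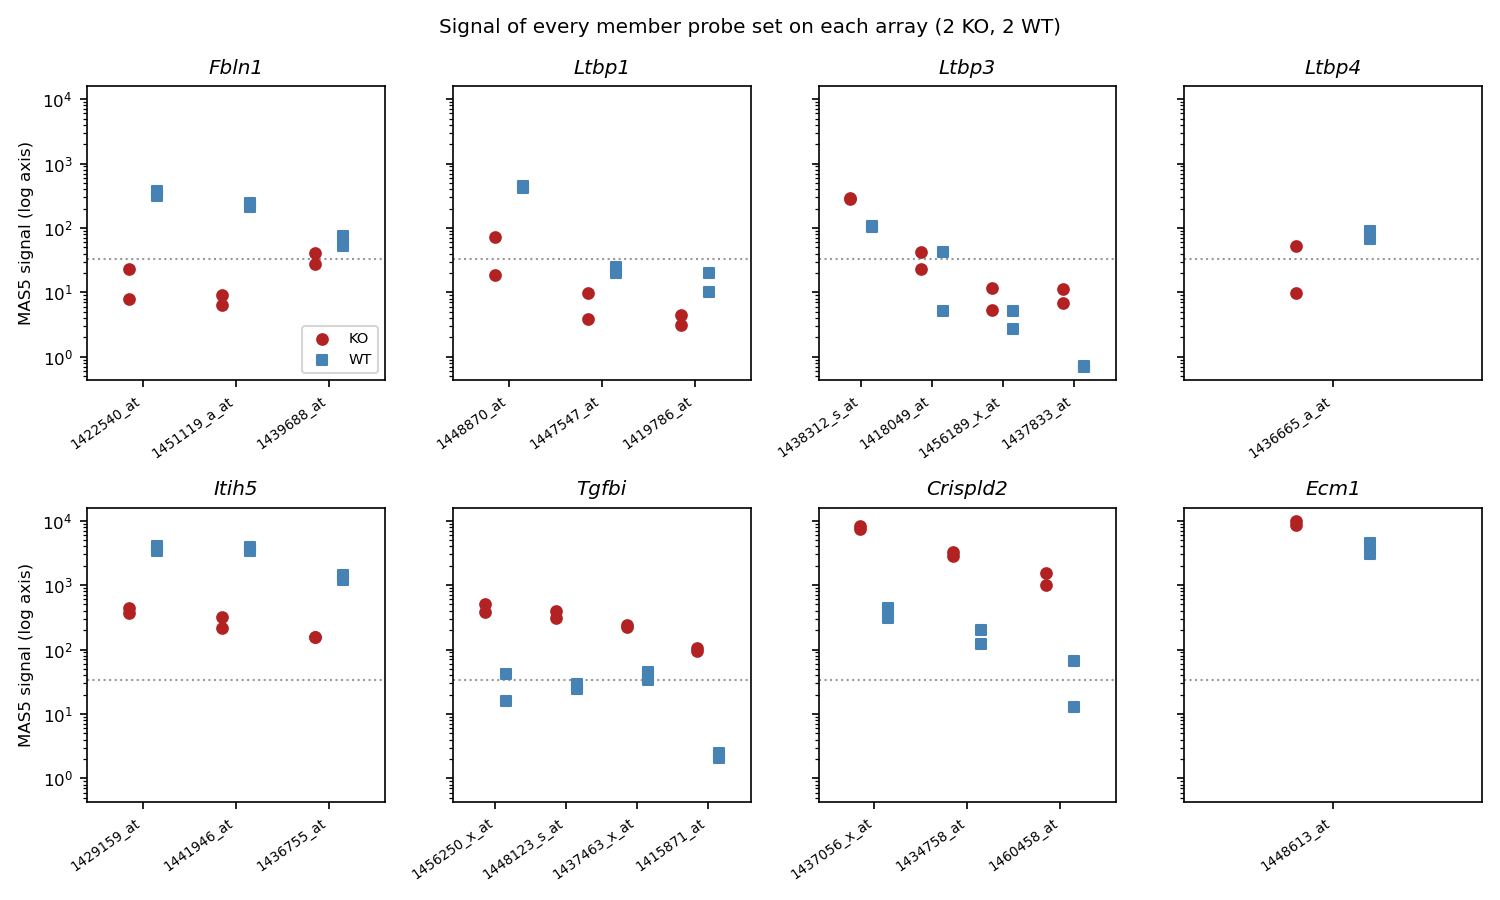
MAS5 signal (log axis) of the 22 member probe sets on each array, with KO arrays as red circles to the left and WT arrays as blue squares to the right and the probe sets of a gene in order of brightness. The dotted line is the signal of 33.2 near which the filter lies. Itih5 and the 2 brighter Fbln1 probe sets are lower on the KO arrays, Crispld2 and Tgfbi higher, and the dimmer probe sets of Ltbp1 and Ltbp3 reach at most 42.5 on any array.

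Among the LTBPs, Ltbp1 was lower and Ltbp3 higher in KO cells, and Ltbp4 was dim. Ltbp1 binds the latent complex of TGF-beta and anchors it to fibrillin. Its first probe set read 18.4 and 72.3 on the KO arrays and 416 and 443 on the WT arrays, so the groups were far apart although KO array 2 lay well above KO array 1. The fold change was -3.02 ± 0.41, a WT level 8.08 times that of KO on the offset scale. It was -2.33 without KO array 1 and -3.70 without KO array 2, and -2.22 with 64 in place of 16 as the pseudocount. The other 2 probe sets were left out by the filter, at 3.82 and 9.91 on KO arrays against 24.99 and 19.98 on WT arrays for the second, and at 3.17 and 4.44 on KO arrays against 19.7 and 9.98 on WT arrays for the third. They pointed the same way as the brightest one, at -0.76 ± 0.38 and -0.62 ± 0.34.

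Ltbp3, which also binds the latent complex and is known in mice for roles in bone and teeth, read 277.6 and 293.9 on KO arrays, against 106.5 and 102.4 on WT arrays, at its first probe set. The values within each genotype were close, and the fold change was 1.32 ± 0.23. The other 3 probe sets were left out by the filter, with the highest signal among them 42.5. At the second probe set the groups overlapped, with 42.5 and 23.1 on KO arrays and 42.5 and 5.13 on WT arrays, and its fold change of 0.44 ± 0.59 was -0.29 without WT array 2 and 1.18 without WT array 1. It was the single overlapping probe set of the 22. The dimmest pair had fold changes of 0.29 ± 0.31 and 0.58 ± 0.28 at signals of 11.6 or less on every array.

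Ltbp4, an LTBP of elastic fibre assembly, had 1 probe set. It read 52.3 and 9.70 on KO arrays, against 67.9 and 91.0 on WT arrays. The KO values did not reach the WT values, but on the log2 scale the KO arrays differed from each other by more than the group means did. The fold change of -1.18 ± 0.52 was -1.88 without KO array 1 and -0.47 without KO array 2. Each LTBP thus rested on 1 probe set above the filter.

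Fbln1 encodes fibulin-1, a calcium-binding glycoprotein of basement membranes and elastic fibres. Its first probe set read 7.98 and 23.0 on KO arrays, against 318 and 379 on WT arrays. The second read 6.34 and 9.12 on KO arrays, against 241 and 210 on WT arrays. On both, KO signals were below the level at which the filter lies and WT signals far above it. The fold changes were -3.57 ± 0.35 and -3.35 ± 0.35. The third was dim and showed a smaller difference, with 28.0 and 40.8 on KO arrays against 52.9 and 73.7 on WT arrays and a fold change of -0.65 ± 0.40. The pseudocount set the size of the first pair, which came to -4.57 and -4.71 with 1, and to -2.38 and -2.01 with 64.

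Itih5 encodes a heavy chain of the inter-alpha-trypsin inhibitor family, whose members attach to hyaluronan. All 3 of its probe sets were well above the filter on every array. The first read 434 and 372 on KO arrays, against 3368 and 3987 on WT arrays, and the second read 214.5 and 319 on KO arrays, against 3384 and 3843 on WT arrays. The third read 157 and 154 on KO arrays, against 1206 and 1439 on WT arrays. The groups were separated on each, by at least 2.82 on the log2 scale between the nearest KO and WT array, and the fold changes were -3.14 ± 0.14, -3.71 ± 0.19 and -2.96 ± 0.17. No setting run moved any of the 3 fold changes by 1.5 times.

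Tgfbi encodes a secreted adhesion protein that binds integrins and collagens and takes its name from its induction by TGF-beta. Its first probe set read 501 and 379.7 on KO arrays, against 16.1 and 41.8 on WT arrays, and the second read 395 and 313 on KO arrays, against 29.6 and 24.3 on WT arrays. The third read 244 and 224 on KO arrays, against 44.7 and 34.2 on WT arrays. WT signals lay near or below the filter level and KO signals well above it, with fold changes of 3.39 ± 0.34, 3.10 ± 0.29 and 2.18 ± 0.29. The fourth was left out by the filter through its WT values of 2.05 and 2.47, while its KO values were 104 and 95.3 (2.66 ± 0.43). Pseudocounts of 1 and 64 moved the fold change of the first to 4.02 and 2.44. Tgfbi is also expressed by macrophages, and of 8 tested macrophage and dendritic markers 4 were called higher, 0 lower and 4 not called. The called ones were Adgre1, at 341 and 392 on KO arrays, against 86.4 and 136 on WT arrays, and Cd14, at 581 and 470 on KO arrays, against 5.88 and 109 on WT arrays. With them were Lyz2, at 205 and 144 on KO arrays, against 30.05 and 41.7 on WT arrays, and Cd68, at 349 and 255 on KO arrays, against 76.4 and 132 on WT arrays. Of the others, Itgax and H2-Aa were not called, Fcgr1 was at 43.2 and 58.3 on KO arrays, against 72.7 and 94.8 on WT arrays, and Mrc1 was at 31.9 or less on every array. The brightest Csf1r probe set was at 140.3 and 121 on KO arrays, against 179 and 111.5 on WT arrays, and 2 of its 3 tested probe sets were called higher. Their part in the Tgfbi values was not tested.

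Crispld2 encodes a secreted protein with CAP and LCCL domains that binds lipopolysaccharide. It had the largest differences among the members. The first read 8143 and 7545 on KO arrays, against 313 and 436 on WT arrays, and the second read 2796 and 3231 on KO arrays, against 124 and 199 on WT arrays. The third read 1018 and 1540 on KO arrays, against 12.9 and 65.1 on WT arrays. KO signals were high on all 3, and on each WT array 2 read more than WT array 1. The fold changes were 4.35 ± 0.16, 4.12 ± 0.21 and 4.71 ± 0.44, and that of the third was 3.97 without WT array 1 and 5.46 without WT array 2.

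Ecm1 encodes extracellular matrix protein 1, which in mice is expressed by Th2 cells and affects their exit from lymph nodes. Its 1 probe set read 9926 and 8638 on KO arrays, against 3061 and 4473 on WT arrays. The difference was a modest 1.32 ± 0.17, a KO level 2.50 times that of WT, and the nearest KO and WT arrays were 0.95 apart on the log2 scale.

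**Figure D2:**
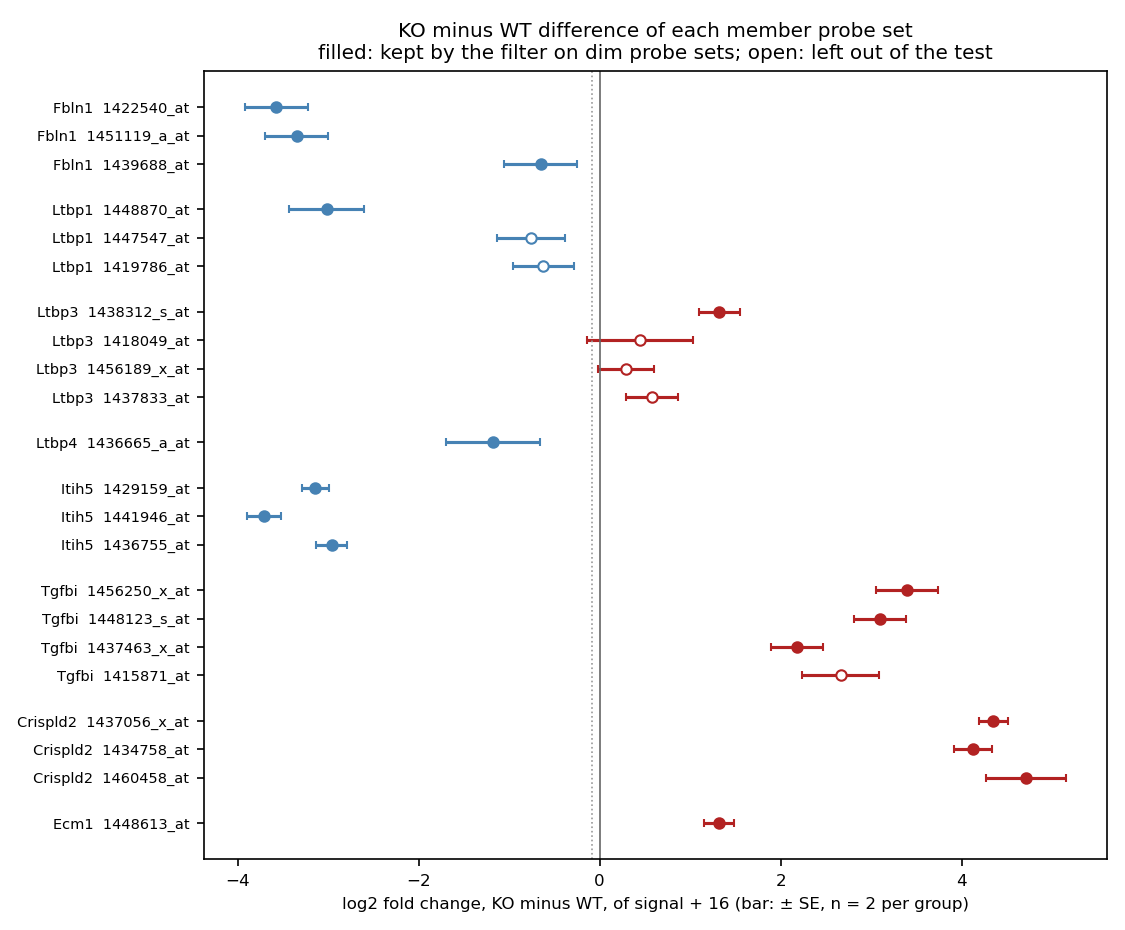
Log2 fold change, KO minus WT, of signal + 16 for the 22 member probe sets, with bars of ± SE (n = 2 per group), red for higher and blue for lower in KO cells. Filled points were kept by the filter and open points were left out, the solid line is 0 and the dotted line is the median of all tested probe sets, -0.08. The probe sets of a gene lie on the same side of 0, with those of Itih5 between -3.71 and -2.96 and those of Crispld2 between 4.12 and 4.71.

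The members differed in how well their probe sets kept together. Those of Itih5 spanned -3.71 to -2.96, of Crispld2 4.12 to 4.71 and of Tgfbi 2.18 to 3.39. Those of Fbln1 spanned -3.57 to -0.65 and of Ltbp1 -3.02 to -0.62, where the smaller values belong to probe sets that were dim in both genotypes. The largest gap within the KO group was 1.41 on the log2 scale, for Ltbp4, higher on KO array 1, and Ltbp1 was next with 1.36, higher on KO array 2. Within the WT group the largest were 1.49 for the third Crispld2 probe set, higher on WT array 2, and 1.47 for the second Ltbp3 probe set, higher on WT array 1. These gaps point to different arrays in different genes.

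**Figure D3:**
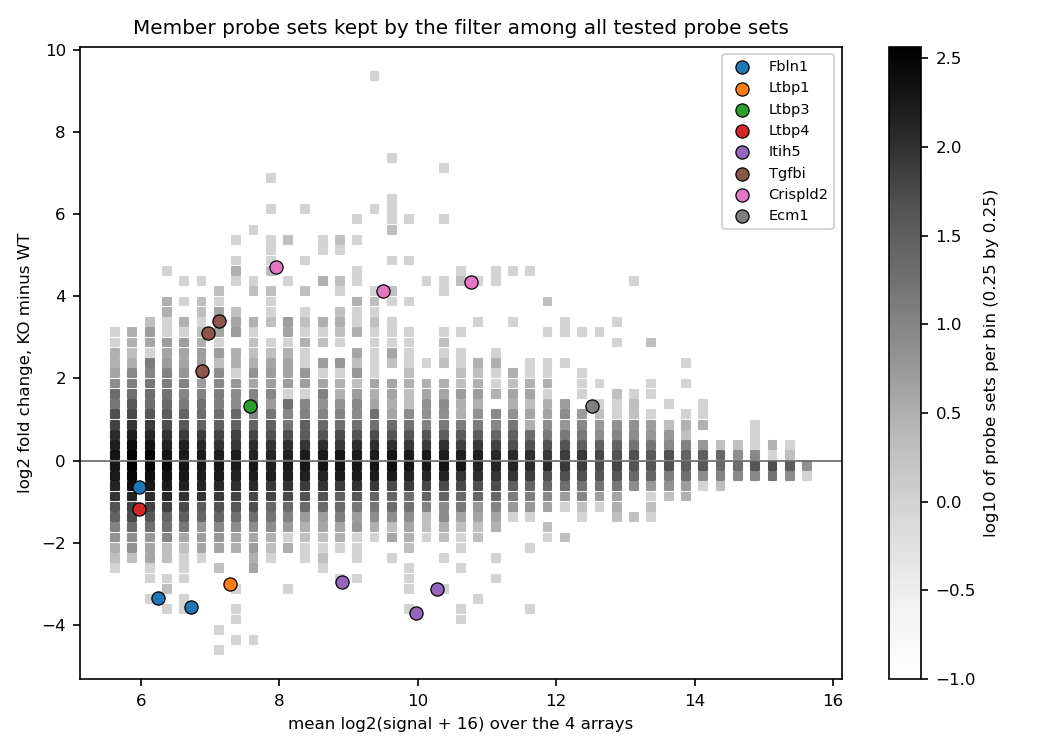
Log2 fold change, KO minus WT, against the mean log2(signal + 16) over the 4 arrays, with the 16 member probe sets kept by the filter as coloured points on all 27022 tested probe sets, binned and shaded by the log10 of their number. Crispld2 at 4.12 to 4.71 and Itih5 at -3.71 to -2.96 lie at the edges of the cloud, and Ecm1 at 1.32 is the brightest member.

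Genes whose 4 values most resembled those of a member were found by the distance between log2 profiles centred on their own mean, over 4 arrays, with the brightest probe set for each member. Nearest to Fbln1 were Atp1b1, a sodium pump subunit, at a distance of 0.38 (log2 units), and Mtus1 at 0.47. Atp1b1, through another probe set, was also nearest to Itih5 at 0.25, with A930005H10Rik next at 0.37. Nearest to Crispld2 were Tgm2, a transglutaminase that cross-links matrix proteins, at 0.23, and the chemokine receptor gene Ccr9 at 0.24. Tgfbi was nearest to Ighm (0.07) and Il1r2 (0.11), Ltbp3 to Mgll (0.03) and Lair1 (0.05), and Ecm1 to Dennd11 (0.09) and Swap70 (0.12). Ltbp1 was nearest to Slc22a2 (0.42) and Pigr (0.57), and Ltbp4 to Gigyf2 (0.11) and Insc (0.14). With 4 arrays in 2 groups such likeness mostly reflects a similar fold change.

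The members lie on 8 different chromosomes, and their nearest protein-coding neighbours, which the choice of members did not use, mostly did not pass the test. Of 16 neighbours by gene order in RefSeq, 13 were tested, 1 rose and 2 fell, beside 10.5% and 9.87% of all 12547 tested genes that were called higher and lower by their brightest probe set. Ttc27, next to Ltbp1, fell to 396 and 540.1 on KO arrays, against 1694 and 1492 on WT arrays (-1.75 ± 0.18, adjusted p = 0.000402 in limma), while Rasgrp3, on the other side of Ltbp1, was at 1.32 ± 0.44 and did not pass (0.69 without WT array 1 and 1.96 without WT array 2). Smad5, next to Tgfbi, a Smad of bone morphogenetic protein signalling, fell by 0.67 (SE 0.18, adjusted p = 0.0405 in limma) at 1 of its 3 tested probe sets, and Adamtsl4, next to Ecm1, itself a matrix gene, rose by 0.84 (SE 0.23, adjusted p = 0.0392 in limma). Itih2, next to Itih5 and of the same family, was at 33.8 and 50.02 on KO arrays, against 42.8 and 39.4 on WT arrays (0.01 ± 0.41). The calls of Smad5 and Adamtsl4 were lost without any filter, without the intensity trend and when single arrays were left out (Smad5 without WT array 2, KO array 1 or KO array 2; Adamtsl4 without WT array 1, KO array 1 or KO array 2), with adjusted p between 0.057 and 0.251, whereas Ttc27 was called under every setting run.

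Among other genes of latent TGF-beta and its release, Tgm2 and Tgfb3 were higher and Nrros was lower in KO cells. Of 21 genes on this list 19 were measured and 11 tested, of which 5 rose, 1 fell and 5 did not pass, with a median fold change of 0.78, beside -0.03 over all tested genes and the shares of 10.5% and 9.87% above. This list and those below were chosen with earlier results of these data known. Their counts and medians are therefore a description, and no shift of a list is read from them. Tgm2, which can cross-link LTBPs into the matrix, was at 8261 and 6158 on KO arrays, against 256 and 352 on WT arrays, with a fold change of 4.50 ± 0.19 (adjusted p = 6.49e-06 in limma), and all 5 of its tested probe sets rose, each of a kind whose name marks probes shared between transcripts. Tgfb3, a TGF-beta ligand, was at 210.1 and 278 on KO arrays, against 44.3 and 63.0 on WT arrays (1.90 ± 0.30, adjusted p = 0.00344 in limma). Tgfb1, the main ligand of T cells, was at 1218 and 1162 on KO arrays, against 938 and 739.7 on WT arrays, and did not pass (0.51 ± 0.15, adjusted p = 0.0557 in limma), although it did with a filter of 60%, with quantile normalization, with the array number as a block (adjusted p = 0.0328 in limma) and without WT array 1.

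Among the proteins that process or activate the latent complex, Furin, the protease that cuts the TGF-beta precursor, rose by 0.78 (SE 0.12, adjusted p = 0.00319 in limma). Itgav, which encodes 1 chain of the integrins that can pull TGF-beta free of its propeptide, was at 7962 and 8010 on KO arrays, against 3505 and 3731 on WT arrays (1.14 ± 0.09, adjusted p = 0.000154 in limma), and 2 of its 3 tested probe sets rose. The membrane metalloproteinase gene Mmp14 was at 265 and 216 on KO arrays, against 77.7 and 75.7 on WT arrays (1.46 ± 0.26, adjusted p = 0.00641 in limma), at 1 of its 2 tested probe sets. Nrros, a membrane anchor of latent TGF-beta in myeloid cells, fell to 932 and 685 on KO arrays, against 1583 and 1402 on WT arrays (-0.89 ± 0.17, adjusted p = 0.0093 in limma). Mmp9 (1.58 ± 0.49, though called without WT array 2, with a pseudocount of 64, with median centring and with the block), Thbs1 (0.12 ± 0.38), Bmp1 (-0.17 ± 0.40) and Plaur (0.20 ± 0.28) did not pass. The remaining 8 were left out as dim, with fold changes on that dim signal of -0.62 ± 0.46 for Tgfb2, -0.31 ± 0.47 for Ltbp2, an LTBP that does not bind latent TGF-beta, -0.22 ± 0.48 for Fbn2, 0.33 ± 0.52 for Itgb6, 0.96 ± 0.49 for Itgb8, 0.35 ± 0.69 for Mmp2, 1.07 ± 0.55 for Plg and -0.55 ± 0.73 for Plau. The membrane anchor gene Lrrc32 and Fbn1 were not analysed here. Without the intensity trend the calls of Furin and Nrros were lost (adjusted p = 0.0768 and 0.0965).

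Relatives of Fbln1 in the elastic fibre moved both ways. Of 15 genes, 13 were measured and 6 tested, and 2 rose, 1 fell and 3 did not pass (median 0.20), beside 10.5% of all tested genes called higher and 9.87% lower. Fbln2, the closest relative of fibulin-1 on the list, was at 123 and 178 on KO arrays, against 695.5 and 571 on WT arrays (-1.98 ± 0.23, adjusted p = 0.000807 in limma). The elastin-interface genes Emilin2, at 6089 and 4195 on KO arrays against 919 and 886 on WT arrays (2.46 ± 0.17, adjusted p = 6.24e-05 in limma), and Emilin1 (1.91 ± 0.34, adjusted p = 0.00652 in limma) rose, and Eln, elastin itself, was at -0.61 ± 0.48 without a call, and at 0.02 without KO array 1 and -1.24 without KO array 2. Without the intensity trend the call of Emilin1 was lost (adjusted p = 0.0617).

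Of 17 genes around the inter-alpha-trypsin inhibitor and hyaluronan, 16 were measured and 7 tested, and 2 rose and 5 did not pass (median 0.01), beside 10.5% of all tested genes called higher and 9.87% lower. Cd44, the hyaluronan receptor of T cells, was at 5644 and 5427 on KO arrays, against 2001 and 1987 on WT arrays (1.46 ± 0.10, adjusted p = 6.21e-05 in limma). Ptx3, a pentraxin that binds heavy chains in the hyaluronan matrix, was at 127 and 95.8 on KO arrays, against 29.6 and 19.5 on WT arrays (1.65 ± 0.38, adjusted p = 0.0196 in limma), a call lost without WT array 2, without KO array 1 and with no filter (adjusted p = 0.0644, 0.103 and 0.0648). The link protein gene Hapln3 (-1.44 ± 0.47) and the heavy chain gene Itih1 (0.64 ± 0.51) did not pass, and Hapln3 was -0.80 without KO array 1 and -2.08 without KO array 2. Of 8 genes with CAP or LCCL domains, as in Crispld2, 7 were measured and 3 tested (median 1.65), too few to set their 1 call beside the 10.5% of all tested genes called higher. Glipr2 rose to 1735 and 1752 on KO arrays, against 574 and 436 on WT arrays (1.77 ± 0.16, adjusted p = 0.000247 in limma), while Coch (1.65 ± 0.54) and Glipr1 (0.08 ± 0.24) did not pass, and Coch was 0.96 without WT array 1 and 2.33 without WT array 2.

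Among core matrix proteins, Srgn and Lama5 rose and Col1a2 fell. Of 31 genes, 30 were measured, 14 left out as dim and 16 tested, and 2 rose, 1 fell and 13 did not pass (median 0.49), beside 10.5% of all tested genes called higher and 9.87% lower. Srgn, serglycin, the proteoglycan of secretory granules, was at 26596 and 23820 on KO arrays, against 13348 and 15709 on WT arrays (0.80 ± 0.10, adjusted p = 0.00152 in limma), and the laminin gene Lama5 was at 363 and 418 on KO arrays, against 141 and 163 on WT arrays (1.28 ± 0.21, adjusted p = 0.00459 in limma). Col1a2, a chain of type I collagen, fell to 149 and 155 on KO arrays, against 767 and 396 on WT arrays (-1.76 ± 0.29, adjusted p = 0.0049 in limma), at 1 of its 2 tested probe sets, and the brightest probe set of Col18a1 (1.67 ± 0.55) did not pass, while the other was called higher. The brightest was 2.54 without WT array 1 and 0.79 without WT array 2. The calls of Srgn and Col1a2 were lost without the intensity trend (adjusted p = 0.0808 and 0.0713). Beside the lower Fbln1, Ltbp1, Itih5 and Fbln2, fibroblast markers summed to 260.5 and 345.5 on KO arrays, against 908.8 and 524.3 on WT arrays. Col1a2 held 149 and 155 of the KO sums and 767 and 396 of the WT sums. The other 6 of the 7 were at 54.8 or less on every array and were left out as dim. The part of fibroblast markers in these differences was not tested.

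Of 16 TGF-beta target genes, 14 were tested, of which 7 rose, 2 fell and 5 did not pass (median 0.39), beside 10.5% of all tested genes called higher and 9.87% lower. The list mixes targets with corepressors and inhibitors of the pathway, so its counts and median give no direction of a TGF-beta response. Id2, an inhibitor of E proteins, was at 18295 and 22922 on KO arrays, against 5669 and 6953 on WT arrays (1.70 ± 0.14, adjusted p = 0.000126 in limma). The cell cycle inhibitor genes Cdkn2b (2.25 ± 0.29, adjusted p = 0.00144) and Cdkn1a (0.82 ± 0.10, adjusted p = 0.00128) and the AP-1 gene Junb (1.03 ± 0.12, adjusted p = 0.000728) rose in the same fit. Named after their values were seen, Ski (-0.52 ± 0.10, adjusted p = 0.0109 in limma) and Skil (-0.37 ± 0.10, adjusted p = 0.0369 in limma), which encode corepressors of Smad proteins, fell, and Smad7, an inhibitor that TGF-beta itself induces, was at -0.34 ± 0.11 and did not pass. The inhibitors and corepressors on the list did not all fall. Ldlrad4 rose (0.83 ± 0.11, adjusted p = 0.00152 in limma), and Tgif1 (-0.50 ± 0.17), Smad6 (0.02 ± 0.35) and Pmepa1 (0.224 ± 0.125) did not pass. Without the intensity trend 12 of the 24 calls over all 6 lists were lost, Cdkn1a, Junb, Ldlrad4, Ski and Skil among them. Without WT array 1 the calls of Ski and Skil were lost, and that of Skil also without WT array 2, without KO array 2, with no filter and with median centring.

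**Figure D4:**
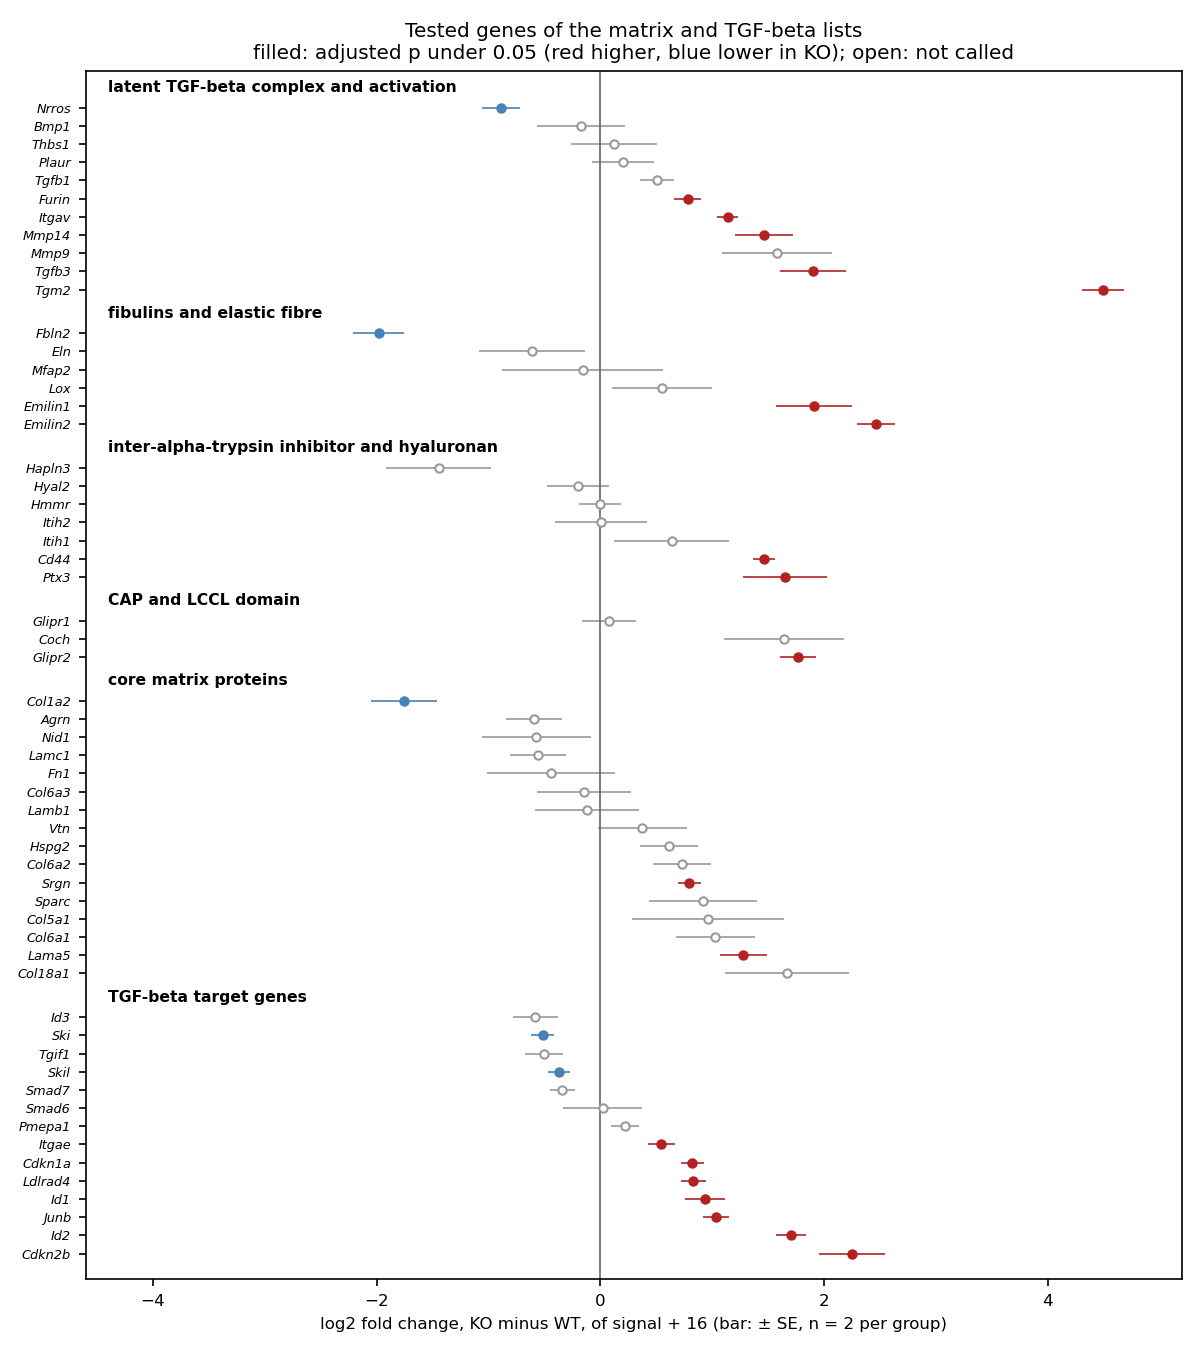
Log2 fold change, KO minus WT, of signal + 16 for the 57 tested genes of the 6 matrix and TGF-beta lists, with bars of ± SE (n = 2 per group). Filled points passed an adjusted p of 0.05 in limma, red for the 19 higher and blue for the 5 lower in KO cells, and open points did not, with Tgm2 at 4.50 the highest and Fbln2 at -1.98 the lowest.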

How the data were processed

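Deposited values are linear intensity values per probe set, 1 column per array, made with MAS5 per the submitters' processing notes, its version not being given in the sources used here. Array medians lay between 56.3 and 62.5. Gene names came from the platform annotation: 34958 probe sets name 1 gene, 932 several and 9211 none, and only the first kind was used.

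After 64 control probe sets and the 40% with the lowest mean were left out, KO was compared with WT on log2(signal + 16) over 27022 probe sets with limma 3.58.1 (R 4.3.3), lmFit and eBayes with an intensity trend, two-sided, with Benjamini-Hochberg adjustment at 0.05, on 2 residual and 6.41 prior degrees of freedom. Array numbers come from the titles. The fit was tested on simulated data. With 2 arrays a group, the smallest p of an exact permutation test is 0.333. The number of arrays limits the precision.

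For a listed gene the brightest tested probe set was used. Of 108 list genes, 100 were measured and 57 tested. Named were all members, all measured genes of the latent TGF-beta list, up to 4 genes of each other list by smallest p, the nearest profiles and, chosen later by position alone, the neighbours. Members and lists were chosen with earlier results of these data known. Alternatives were pseudocounts of 1 and 64, no filter or 60%, quantile normalization, median centring, no trend, the array number as a block, for the lists no probe sets whose names mark shared probes, and each array left out. Promoters are from RefSeq, GRCm38.p6.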

Additional observations from a re-analysis of the deposited data

How the results depend on the processing

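Across the 12 settings run on them, none of the called member probe sets changed sign. Their KO and WT values did not overlap, so leaving out an array or changing the pseudocount, filter, trend or block could not turn a sign. Of all 22, 12 were higher in KO cells in every setting but 1, where leaving out WT array 2 turned the dim second Ltbp3 probe set and left 11. Among the settings, the pseudocount most often moved a size by more than the probe set's own SD between arrays, in 11 of 22 with 1 and 15 of 22 with 64. With 2 arrays a group that SD is itself uncertain, and where it is small a small move counts. The first Ltbp3 probe set, with an SD of 0.046, moved from 1.32 to 1.44 with a pseudocount of 1. Calls over all probe sets numbered 4608, 1183 without the intensity trend and 2786 to 4387 with single arrays left out. The listed genes had 24 calls, 19 higher and 5 lower, against 12, 11 and 1 without the trend. Their lower calls were 3 to 6 with single arrays left out and 3 without probe sets whose names mark probes shared between transcripts, where Fbln2 could not be tested and Col1a2 was not called. The calls of Tgm2 and Id1 ended there too, with no such probe set left to test. With the replicate block 5382 probe sets and 28 listed genes were called, and all 24 were among them. The labels do not say whether same-numbered arrays belong together. The correlation of their deviations was 0.01, which with 2 arrays per genotype cannot decide it. Genes that gained a call under some setting, Tgfb1, Mmp9, Coch, Col18a1, Hapln3, Rasgrp3 and Ltbp4 among them, did not pass as reported. Dim signals, as for Ltbp4 and most LTBP probe sets, limit what can be seen.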
